A study of Drosophila melanogaster with 20 samples.

Results

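Complex I, or NADH:ubiquinone oxidoreductase, is the largest enzyme of the mitochondrial respiratory chain, and the nuclear genes of its fly subunits carry symbols that begin with ND-. The genes described here were those whose probe set on the array had exactly 1 gene symbol in the platform annotation and whose symbol began with ND-. This gave 35 probe sets and 32 genes, out of 18769 probe sets that were not controls and 11982 genes with a single symbol. Where a gene had several probe sets, the probe set with the highest mean signal over all arrays stood for it. The rule used names and mean signal only, so it used none of the differences between groups given below.

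Total RNA from dissected Drosophila melanogaster brains was labelled with biotin and measured on Affymetrix Drosophila 2 arrays, with a separate array for each sample. Wild-type flies of the line labelled 5905 and miR-34 null flies labelled 0110 were sampled after natural ageing to 3 d and to 20 d, which makes 4 groups of 5 arrays, 20 arrays altogether. All flies were kept on the same standard cornmeal and molasses medium, and no other allele or agent is named for any group. Each genotype is represented by a single labelled line, and the loss of miR-34 and any other difference in the lines' backgrounds cannot be told apart. The sex of the flies, the number of brains per array and whether the repeats came from separate cohorts are not given in the sources used here, so p-values measure the spread between these arrays only.

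Complex I takes electrons from NADH through a flavin and a chain of iron-sulphur clusters in a peripheral arm that stands in the mitochondrial matrix, passes them to ubiquinone, and uses the energy to pump protons through an arm buried in the inner membrane. Its catalytic core is built from nuclear and mitochondrial genes, and many accessory subunits, all nuclear, surround the core and are needed for its assembly and stability. Brain tissue relies on this chain for most of its ATP, and lower expression of respiratory chain genes is a widely described feature of ageing flies. The roles given for single subunits are those known from the mammalian enzyme.

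Of the 32 genes, 26 had a signal above the array's median on all 20 arrays and were tested, and the other 6 were too dim for the filter. The 26 were 3 core subunits, 7 accessory subunits of the peripheral arm, 6 accessory subunits of the part of the membrane arm next to it, 8 of the far part of the membrane arm, the acyl carrier protein ND-ACP and ND-MLRQ. The counterpart of ND-MLRQ, NDUFA4, is now counted as a subunit of complex IV. By the RefSeq annotation (assembly Release 6 plus ISO1 MT), 8 of the 26 genes lie on X, 8 on 2L, 4 on 2R, 5 on 3L and 1, ND-42, on 3R, the arm that also carries mir-34. No probe set with a single symbol was found for the 7 complex I genes of the mitochondrial genome. The other nuclear core subunits were not among the 32 genes and were not analysed here. The same holds for some accessory subunits, among them ND-MWFE, ND-B15 and ND-NP15.6.

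The arrays of a group resembled each other closely, with correlations of 0.989 to 0.997 over all probe sets tested, and the highest correlation between arrays of different groups was 0.971. The median signal of an array ranged from 19.1 to 25.0 units, and each array had been scaled to the same trimmed mean. No probe set was listed for mir-34, so these arrays give no check of the null genotype. Changes are given as differences of log2(signal + 16), and percentages are the same differences on the scale of signal + 16. Gene tests came from 1 limma model over 9806 probe sets with Benjamini-Hochberg adjustment, and a gene is called higher or lower, or said to have risen or fallen, at an adjusted p under 0.05.

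The comparison of 20 d with 3 d brains asked how the complex I genes changed with natural ageing. In wild type 25 of the 26 genes fell and 1, ND-B12, rose, with a median change of -0.286 log2, a fall of 18%. Over all probe sets tested, 55.6% were called in this comparison, 30.7% higher and 24.8% lower, and the median change was 0.019. In miR-34 null flies the same 25 genes fell and the same gene rose, with a median change of -0.289, a fall of 18.2%. There 58.0% of all probe sets were called, 32.0% higher and 26.0% lower, with a median change of 0.017. A fall in both genotypes was called for 17.8% of all probe sets. In bulk tissue, fewer cells of a type that expresses a gene and less RNA of that gene per cell cannot be told apart.

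The size of the fall depended on how the arrays were scaled, while its direction did not. With quantile normalization the median change was -0.17 in wild type and -0.16 in null, and 22 genes fell in each genotype, but with each array centred on its median it was -0.384 and -0.381 and 25 fell in each. The split of all calls moved as well. In wild type 3013 probe sets were called higher and 2436 lower as deposited, against 2234 and 3182 after quantile normalization and 2033 and 3878 after median centring. In null the split was 3142 higher and 2550 lower as deposited, 2600 and 3000 after quantile normalization, and 2173 and 3866 after centring.

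Bright probe sets as a whole were called lower more often than dim ones. The mean signals of the 26 genes over all arrays ran from 298 to 1803 units, and 3533 probe sets lay in that range, which was set after the data were seen. Of these, 41.0% were called lower and 19% higher with age in wild type, with a median change of -0.074, and 37.6% were called lower and 22.1% higher in null, with a median of -0.05. Below that range 15.3% were called lower and 38.0% higher in wild type.

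**Figure D1:**
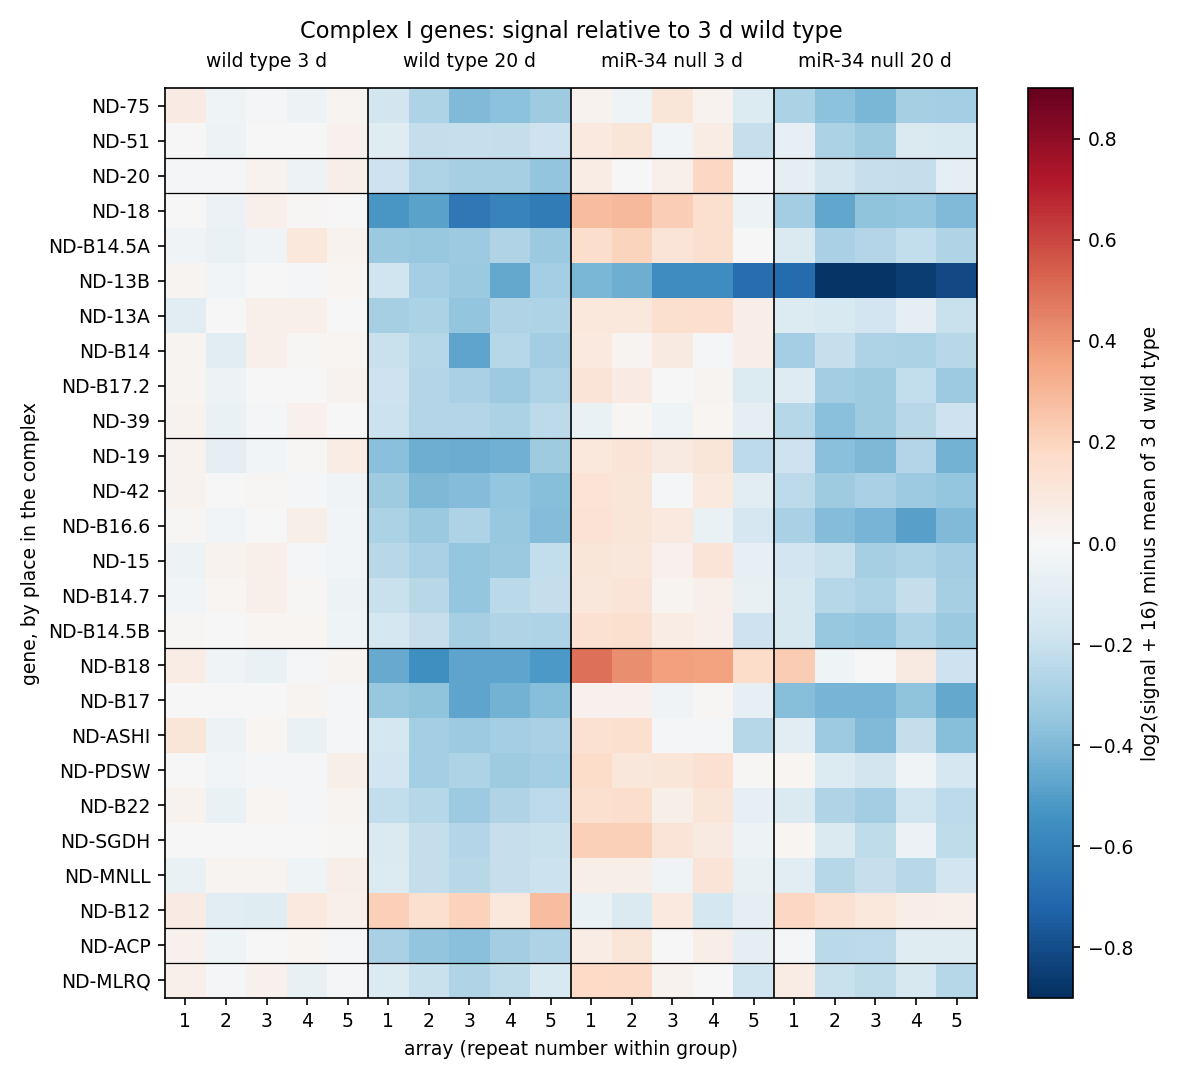
Signal of the 26 complex I genes on each of the 20 arrays, as log2(signal + 16) minus that gene's mean in 3 d wild type (colour scale); rows are genes ordered by place in the complex, and columns are arrays by group and repeat number. The columns at 20 d are blue in nearly all rows, the row of ND-B12 is red there, the row of ND-13B is dark blue throughout the null arrays, and the column of repeat 5 of 3 d null is paler or bluer than its neighbours in most rows.

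The 3 core subunits measured were ND-75, ND-51 and ND-20, and all of them fell with age in both genotypes. ND-51, counterpart of NDUFV1, is the subunit that binds NADH and the flavin. Its signals in wild type were 1479, 1434, 1476, 1483 and 1516 at 3 d and 1371, 1274, 1276, 1273 and 1299 at 20 d. In null flies they were 1571, 1591, 1449.6, 1547 and 1276 at 3 d and 1403, 1209.9, 1183, 1349 and 1344 at 20 d. The wild-type groups did not overlap, while in null repeat 5 at 3 d lay among the 20 d arrays. ND-51 had the smallest change of the genes that fell in wild type, -0.185 ± 0.053 (SE, adjusted p = 0.00497), and in null the change was -0.192 ± 0.053 (adjusted p = 0.00342). After quantile normalization both falls were lost, at -0.042 (adjusted p = 0.304) and -0.039 (adjusted p = 0.34).

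ND-20, counterpart of NDUFS7, carries the iron-sulphur cluster that hands electrons to ubiquinone. Its signals were 1078, 1076, 1115, 1054 and 1131 in 3 d wild type and 954, 897, 886, 884 and 849 at 20 d. The null arrays gave 1141, 1090.4, 1127, 1244 and 1083 at 3 d and 1030.1, 969, 944, 939 and 1031 at 20 d. Neither genotype's ages overlapped, and 3 of the 5 null arrays at 20 d stood above every wild-type array of that age. The fall was 17.8% in wild type (adjusted p = 3.06e-06) and 13.4% in null (adjusted p = 0.000145). ND-75, counterpart of NDUFS1 and the largest subunit, which holds several of the iron-sulphur clusters, had mean signals of 628 ± 22.8 (SD, n = 5) in 3 d wild type and 506 ± 33.4 at 20 d. It fell by 19.1% in wild type and by 20.9% in null, from 631 ± 38.7 to 495 ± 18.9.

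All 7 accessory subunits of the peripheral arm fell in both genotypes, with changes of -15.9% to -32.9% in wild type and -15.7% to -31.9% in null. The lowest change of all 26 genes in both genotypes was that of ND-18, counterpart of NDUFS4, an accessory subunit that helps to hold the NADH-binding end of the arm in place and whose loss causes Leigh syndrome in humans. Its signals in wild type were 682, 657, 704, 688 and 679.8 at 3 d and 469.7, 484, 431, 443 and 435 at 20 d. Null signals were 831, 837, 797, 757 and 658 at 3 d and 547, 488, 528, 532 and 514 at 20 d. Every array at 20 d was far below every array at 3 d of its genotype. ND-18 changed by -0.58 ± 0.051 log2 in wild type (adjusted p = 1.28e-09) and by -0.55 ± 0.051 in null (adjusted p = 2.21e-09).

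ND-13B, counterpart of NDUFA5 in the ubiquinone-binding part of the arm, combined a fall with age and a lower level in null. Wild-type signals were 1432, 1387, 1403, 1393 and 1429.7 at 3 d and 1243, 1136, 1112, 1017 and 1134 at 20 d. Those in null were 1055, 1033, 949.9, 949 and 869 at 3 d and 867, 756, 758, 772 and 795 at 20 d. The groups formed a descending series from 3 d wild type to 20 d null in their means, and the only overlap between neighbours in that order was that the 2 highest arrays of 3 d null lay above the lowest of 20 d wild type. The fall with age was 19.8% in wild type (adjusted p = 1.33e-05) and 18.3% in null (adjusted p = 3.8e-05).

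ND-13A, counterpart of the zinc-binding subunit NDUFS6, had signals of 964, 1035, 1067, 1064 and 1037 in 3 d wild type and 835, 846, 804, 855 and 848 at 20 d. For null the values were 1103, 1103, 1142, 1148 and 1075 at 3 d and 945, 939, 914, 969.9 and 898 at 20 d. The ages did not overlap in either genotype, and at each age the null arrays were the higher ones. ND-13A fell by 18.6% in wild type (adjusted p = 6.41e-08) and by 16% in null (adjusted p = 7.51e-07).

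The other 4 peripheral accessory genes were ND-B14.5A, ND-B14, ND-B17.2 and ND-39. ND-B14.5A, counterpart of NDUFA7, went from 738 ± 32.4 to 587 ± 12.3 in wild type and from 806 ± 41.3 to 625 ± 29.1 in null, falls of 20% and 22%. ND-B14, counterpart of NDUFA6, a protein of the LYR family that docks an acyl carrier protein, fell by 18.6% and 19.4%. ND-B17.2, counterpart of NDUFA12 and a late addition during assembly, fell by 17% in wild type and fell by 17.5% in null. ND-39, counterpart of NDUFA9 and related to short-chain dehydrogenases, fell by 15.9% and 15.7%. Of these 4, the ages overlapped for ND-B17.2 in null only, and their adjusted p-values for ageing were at most 2.12e-05.

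All 6 accessory subunits of the near membrane arm fell in both genotypes, with a median change of -19.2% in wild type and -21.0% in null. ND-19, counterpart of NDUFA8, faces the intermembrane space and is held together by disulphide bonds. It gave 1484, 1369.9, 1426, 1461 and 1518 in 3 d wild type and 1112, 1068, 1063, 1069 and 1159.8 at 20 d. In null it gave 1548, 1577, 1535, 1565 and 1231 at 3 d and 1274, 1115, 1095, 1209 and 1077 at 20 d. The wild-type ages were well apart, but repeat 5 of 3 d null fell below the highest null array at 20 d. The change was -0.40 ± 0.058 log2 in wild type (adjusted p = 2.98e-06) and -0.36 ± 0.058 in null (adjusted p = 1.16e-05).

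ND-B16.6, counterpart of NDUFA13 (GRIM-19), spans the junction of both arms. Signals in wild type were 1189, 1160.2, 1179, 1225 and 1161 at 3 d and 968, 937, 971, 933 and 899 at 20 d. Those of null were 1298, 1274, 1256, 1132 and 1065 at 3 d and 961, 898, 882, 839.7 and 893 at 20 d. No 20 d array reached a 3 d array of the same genotype. ND-B16.6 fell by 20.1% in wild type (adjusted p = 2.78e-06) and by 25.3% in null (adjusted p = 4.96e-08).

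Among the rest of this group, ND-42, counterpart of NDUFA10 with the fold of a nucleoside kinase, fell from 1699 ± 27.7 to 1311 ± 32.7 in wild type and from 1753 ± 112 to 1373 ± 42.1 in null. These were falls of 22.7% and 21.4%. ND-15, counterpart of NDUFS5, which also faces the intermembrane space, fell by 18.1% and 19.4%. ND-B14.7, counterpart of NDUFA11, fell by 15.9% and 17.9%. ND-B14.5B, counterpart of NDUFC2, fell by 15.4% and 20.5%, and its ages overlapped in null. The adjusted p-values for ageing in this group were at most 0.000361 in wild type and 1.16e-05 in null.

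Of the 8 accessory subunits of the far membrane arm, 7 fell and ND-B12 rose, in both genotypes. ND-B18, counterpart of NDUFB7 on the intermembrane side, had signals of 449, 419, 410.1, 425 and 436 in 3 d wild type and 309, 286, 304, 304 and 295 at 20 d. On the null arrays the signals were 611, 577, 558, 555 and 482 at 3 d and 504, 416, 427, 452 and 373 at 20 d. The 20 d null arrays had a mean of 434, close to the 428 of 3 d wild type, and in null the highest 20 d array passed the lowest 3 d array. ND-B18 changed by -0.49 ± 0.06 log2 with age in wild type (adjusted p = 2.66e-07) and by -0.35 ± 0.06 in null (adjusted p = 3.06e-05).

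ND-B17, counterpart of NDUFB6, had the lowest adjusted p for ageing of the 26 genes in each genotype. Its signals were 1088, 1086, 1093, 1107 and 1077 in 3 d wild type and 856, 844, 780.2, 809 and 833 at 20 d. The corresponding null values were 1122, 1119, 1064, 1100.0 and 1032 at 3 d and 831, 811, 811, 843 and 788 at 20 d. In this probe set the values of the genotypes overlapped at each age, with a wide gap between the ages. ND-B17 fell by 24% in wild type (adjusted p = 2.64e-10) and 24.5% in null (adjusted p = 1.52e-10). Its second probe set changed by -25.8% and -23.4% with age. Unlike the first, that probe set was called higher in null at 20 d, by 11.1% (adjusted p = 0.0395), although its groups overlapped, and at 3 d it was not called, at 7.68% (adjusted p = 0.177).

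ND-PDSW, counterpart of NDUFB10 and a neighbour of ND-B18 on the intermembrane side, gave 1133, 1109, 1113, 1120.2 and 1173 in 3 d wild type and 999, 911, 929, 901 and 911 at 20 d. In null it gave 1269, 1216, 1218, 1244 and 1137 at 3 d and 1146, 1035, 1004, 1103 and 1014 at 20 d. The wild-type ages were apart, and in null the highest 20 d array was above the lowest 3 d array. The fall was 17.4% in wild type (adjusted p = 3.2e-06) and 12.8% in null (adjusted p = 0.000203).

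ND-ASHI, counterpart of NDUFB8, fell from 1711 ± 83.6 to 1408 ± 69.7 in wild type and from 1719 ± 187 to 1405 ± 127 in null. ND-B22, counterpart of the LYR protein NDUFB9, fell by 17% in wild type and fell by 18.9% in null. ND-SGDH, counterpart of NDUFB5, fell by 13.1% in wild type and 15.3% in null. ND-MNLL, counterpart of NDUFB1, fell by 12.7% and 14.2%, and its wild-type fall was lost after quantile normalization (adjusted p = 0.103).

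ND-B12, counterpart of NDUFB3, was the exception. In wild type its signals were 301, 265, 263, 305 and 295 at 3 d and 333.8, 317, 332, 306 and 349 at 20 d. Null brains had 273, 259.7, 304, 254 and 268 at 3 d and 326, 316, 306, 299 and 295 at 20 d. The wild-type groups only just failed to overlap, with the highest 3 d array at 305 and the lowest 20 d array at 306, and the null groups overlapped. The rise was 0.19 ± 0.051 log2 in wild type (adjusted p = 0.00313) and 0.18 ± 0.051 in null (adjusted p = 0.00498). It was not called after median centring, at 0.089 in wild type (adjusted p = 0.143) and 0.083 in null (adjusted p = 0.168). Quantile normalization left it called in wild type at 0.13 (adjusted p = 0.0255) but not in null at 0.11 (adjusted p = 0.06).

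**Figure D2:**
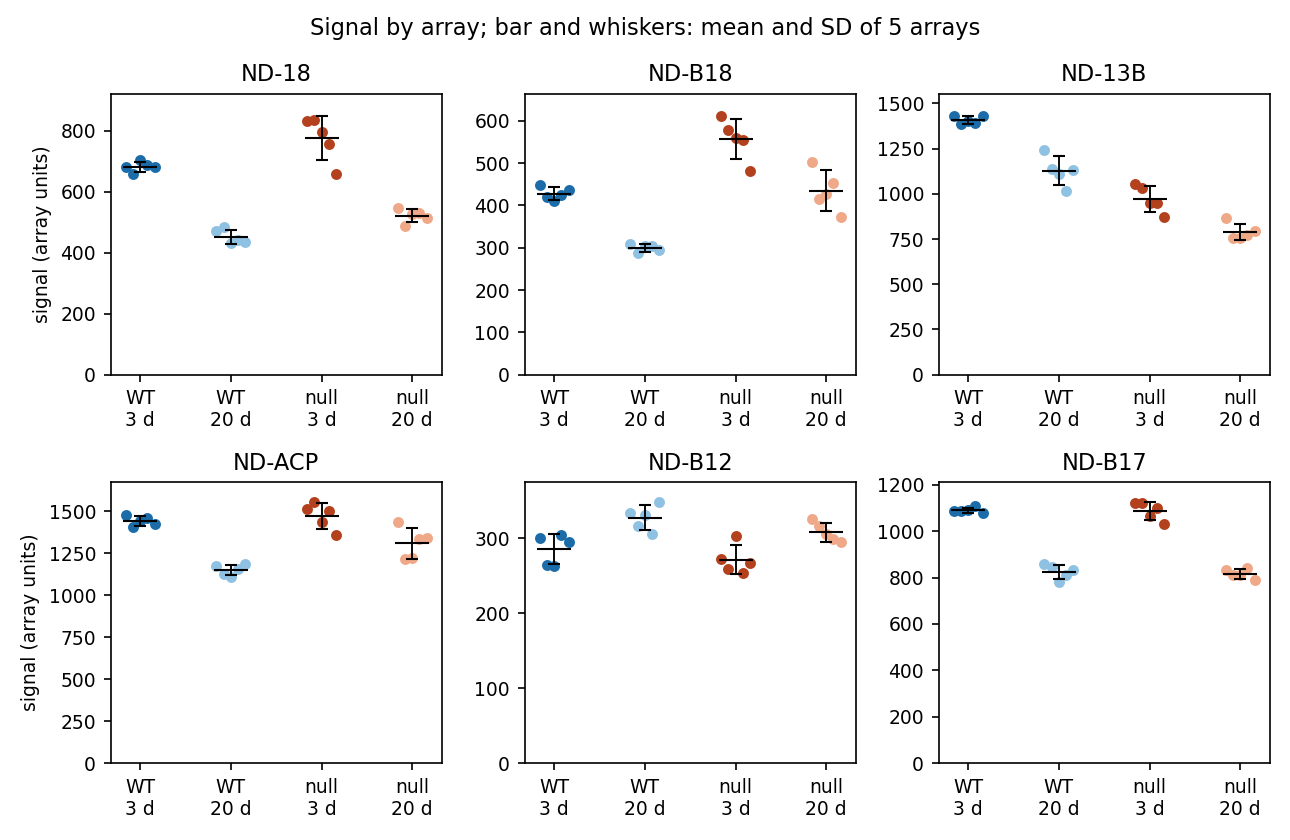
Signal in array units (y axis, from 0) on each of the 20 arrays for 6 complex I genes, by group (x axis; WT, wild type); points are arrays, and the bar with whiskers is the mean and SD of 5 arrays. ND-18 and ND-B17 drop with age in both genotypes, ND-B18 is higher and ND-13B lower in null at both ages, ND-ACP drops less in null, and ND-B12 alone is higher at 20 d.

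ND-ACP is the mitochondrial acyl carrier protein, which sits in complex I and also serves mitochondrial fatty acid synthesis and the assembly of iron-sulphur clusters. Wild-type signals were 1479.9, 1404, 1442, 1458 and 1425 at 3 d and 1175, 1124, 1109.7, 1157 and 1184 at 20 d. Those in null were 1514, 1556, 1436, 1500.1 and 1355 at 3 d and 1434, 1214, 1224, 1336 and 1337 at 20 d. In wild type the ages lay far apart, whereas in null the highest 20 d array exceeded the lowest 3 d array. The fall was 20% in wild type (adjusted p = 1.16e-06) and 11.1% in null (adjusted p = 0.00194). The fall in null was not called after quantile normalization, at -0.018 log2 (adjusted p = 0.588). ND-ACP had 2 more probe sets, with changes of -20.6% and -31.3% in wild type and -15.2% and -24.6% in null. ND-MLRQ, counterpart of NDUFA4, went from 1893 ± 60.7 to 1656 ± 71.5 in wild type and from 1954 ± 194 to 1707 ± 165 in null. Its changes of -12.5% in each genotype (adjusted p = 0.0109 and 0.0102) were lost after quantile normalization (adjusted p = 0.212 and 0.202).

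The 6 genes below the filter had low signals in every group. ND-20L, ND-24L, ND-51L1, ND-51L2 and ND-B14.5AL are further copies of core or accessory subunit genes, and their group means ranged from 0.81 to 17 units. ND-B8, counterpart of NDUFA2, was also dim on this array, at 8.57 ± 0.984 (SD, n = 5) and 5.8 ± 1.16 in wild type at 3 d and 20 d, and 11.5 ± 3.36 and 6.43 ± 2.8 in null. A dim probe set does not show that a gene is off. The probe sets of 6 tested genes, ND-15, ND-19, ND-20, ND-B14.7, ND-MNLL and ND-PDSW, are of the kind that the manufacturer marks with _s_at for probes shared by more than 1 transcript sequence, so their signals may include related transcripts.

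The change with age was tested for a difference between the genotypes by the interaction, the change in null minus that in wild type. No complex I gene was called, against 17% of all probe sets, 7.61% higher and 9.38% lower, and 7.36% higher and 6.37% lower among those of the same signal range. The count at an unadjusted p under 0.05 was 1, ND-ACP. The median interaction of the 26 genes was -0.008 log2, and the 95% confidence intervals of single genes lay between -0.241 and 0.321, with 24 of the 26 inside -0.25 to 0.25. The intervals are not adjusted for the number of genes. The intervals of ND-ACP and ND-B18 were those that reached beyond 0.25.

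ND-ACP had an interaction of 0.15 log2 (95% interval 0.026 to 0.281, adjusted p = 0.0965), that is, a smaller fall in null. After quantile normalization it was 0.165 (adjusted p = 0.00287), and without repeat 2 of 20 d null its adjusted p was 0.0483. The other 2 probe sets of the gene gave 0.095 (adjusted p = 0.619) and 0.13 (adjusted p = 0.375). For ND-B18 the interaction was 0.14 (95% interval -0.032 to 0.321, adjusted p = 0.291), and for ND-B16.6 it was -0.096 (adjusted p = 0.379).

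The comparison of ageing in wild type with ageing in null shares no array between its sides. Across the 26 genes the log2 changes had a Pearson correlation of 0.896 and a Spearman correlation of 0.751, and 0.772 (Pearson) without ND-B12. Over all 9806 probe sets the Pearson correlation was 0.593 and the Spearman correlation was 0.748. The rank correlations were thus close, but ranks within genes that nearly all fell are not directly comparable with ranks over the whole array. The change had the same sign in both genotypes for all 26 genes and for 7880 of the 9806 probe sets. Genes measured on the same arrays are not independent, so these values are a description only. The median gap between the genotypes was 0.029 log2 for the 26 genes and 0.097 for all probe sets. Of the 9806 probe sets, 6173 were dimmer than all 26 genes. The gap was not computed for probe sets of the same signal range, so the part of brightness in it was not tested.

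**Figure D3:**
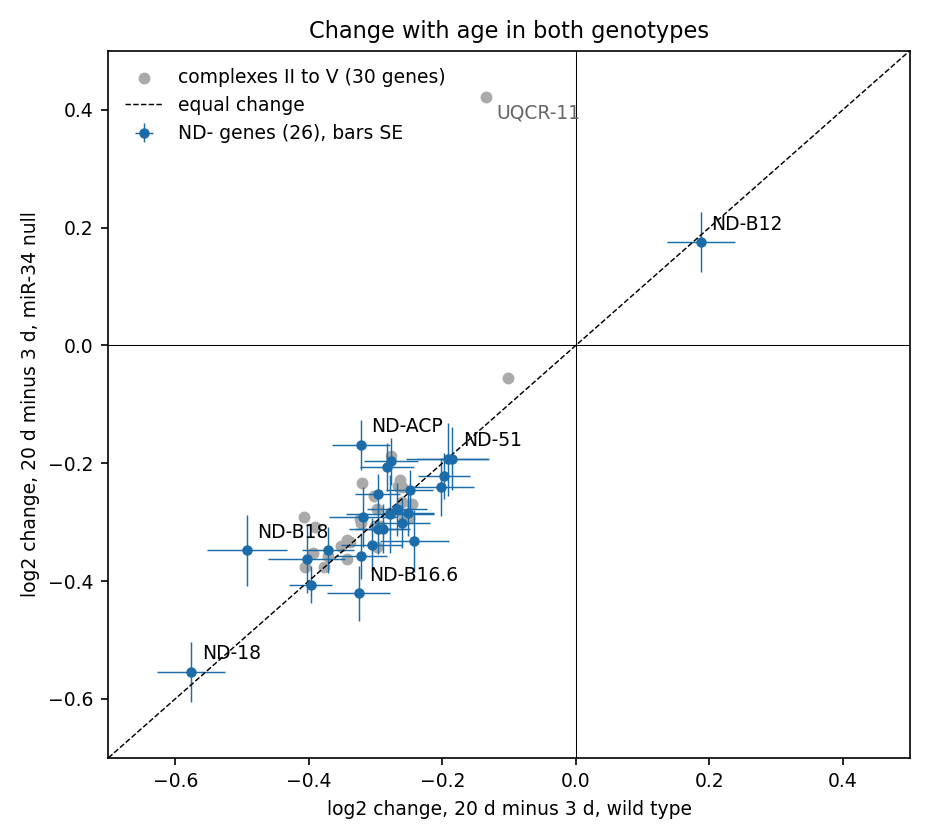
Log2 change from 3 d to 20 d in wild type (x axis) and in miR-34 null (y axis), in units of log2(signal + 16); blue points are the 26 complex I genes with bars of 1 SE, grey points are 30 genes of complexes II to V, and the dashed line marks equal change. All blue points but ND-B12 lie in the lower left close to the line, ND-18 is farthest out, and the grey point of UQCR-11 is far above the line.

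The comparison of null with wild type asked which genes differ between the lines at each age. At 3 d 5 of the 26 genes were higher in null and 1 was lower, with a median difference of 0.041 log2. Of all probe sets 33.8% were called at that age, 15.4% higher and 18.4% lower, so the share of complex I genes called, 6 of 26, was not above that of the array. Among probe sets of the same signal range 14.3% were called higher and 15.1% lower at 3 d, and 23.5% and 19.1% at 20 d. At 20 d 6 genes were higher and 1 lower, with a median of 0.035, against 45.5% of all probe sets, 20.9% higher and 24.6% lower. A total of 5 genes were called in the same direction at both ages, 1 at 3 d only, 2 at 20 d only and 18 at neither age.

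ND-B18 had the largest difference upwards. Null exceeded wild type by 0.36 ± 0.06 log2 (28.7%, adjusted p = 3.69e-05) in young brains, and in 20 d brains by 0.51 ± 0.06 (42.2%, adjusted p = 2.13e-07). The means were 557 ± 47.2 against 428 ± 15.2 at 3 d and 434 ± 48.1 against 299 ± 8.79 at 20 d, and every null array was above every wild-type array of the same age. ND-13B was the only gene called lower. Its difference was -30.9% at 3 d (adjusted p = 9.17e-09) and -29.6% in 20 d brains (adjusted p = 1.73e-08), with means in null and wild type of 971 ± 74.3 against 1409 ± 20.9 and 789.6 ± 46.1 against 1129 ± 80.4, again with no overlap.

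The other genotype differences were smaller. ND-18 was higher in null by 13.1% in 3 d brains (adjusted p = 0.00861) and 14.8% in 20 d brains (adjusted p = 0.00253), and its groups overlapped at 3 d only, where repeat 5 of null was the single array within the wild-type range. ND-13A was higher by 7.75% (adjusted p = 0.0139) and 11.2% (adjusted p = 0.000558), without overlap at either age, and its 3 d call was lost without repeat 1 of 3 d wild type (adjusted p = 0.0557). ND-PDSW was higher by 7.55% at 3 d (adjusted p = 0.0464) and 13.7% at 20 d (adjusted p = 0.00055). Its call at 3 d was lost in 13 of the 20 fits that left out 1 array, with adjusted p-values from 0.0511 to 0.116, and was also lost with no filter, after median centring and without the trend and robust settings.

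ND-B14.5A was called at 3 d only, at 8.97% higher in null (adjusted p = 0.0162), and its difference at 20 d was 6.34% (adjusted p = 0.0695). The 3 d call was lost without repeat 2 of 3 d null (adjusted p = 0.053), and without repeat 5 of 3 d null the 20 d difference was called (adjusted p = 0.0424). ND-ACP and ND-20 were called at 20 d only. ND-ACP was 13.4% higher at 20 d (adjusted p = 0.0014), with no overlap, while the 3 d difference was 2% (adjusted p = 0.666). Its other 2 probe sets overlapped between the genotypes at 20 d, and 1 of them was called higher in null, by 13.5% (adjusted p = 0.0232), but the other was not, at 9.21% (adjusted p = 0.169). For ND-20 the differences were 9.72% at 20 d (adjusted p = 0.00972) and 4.09% in 3 d brains (adjusted p = 0.304). For ND-20 and ND-B14.5A no difference between the ages was called, with interactions of 0.076 (adjusted p = 0.436) and -0.035 (adjusted p = 0.747).

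No gene of the near membrane arm was called for genotype at either age, and neither were the core subunits ND-75 and ND-51. Differences of these 8 genes ranged from 0.004 to 0.058 log2 at 3 d and from -0.073 to 0.073 at 20 d. Of the 8 tested genes on X, 4 (ND-18, ND-B18, ND-B14.5A and ND-20) were called higher in null at 1 age or both, against 3 of the 18 on other arms (ND-13A, ND-PDSW and ND-ACP). Of all tested probe sets with a single symbol and a known arm, 25.1% of those on X and 27.1% of those on other arms were called higher in null at 1 age or both. The split of the complex I genes was noticed in the data and was not tested. ND-42, on the arm of mir-34, was not called at either age (adjusted p = 0.44 and 0.177).

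**Figure D4:**
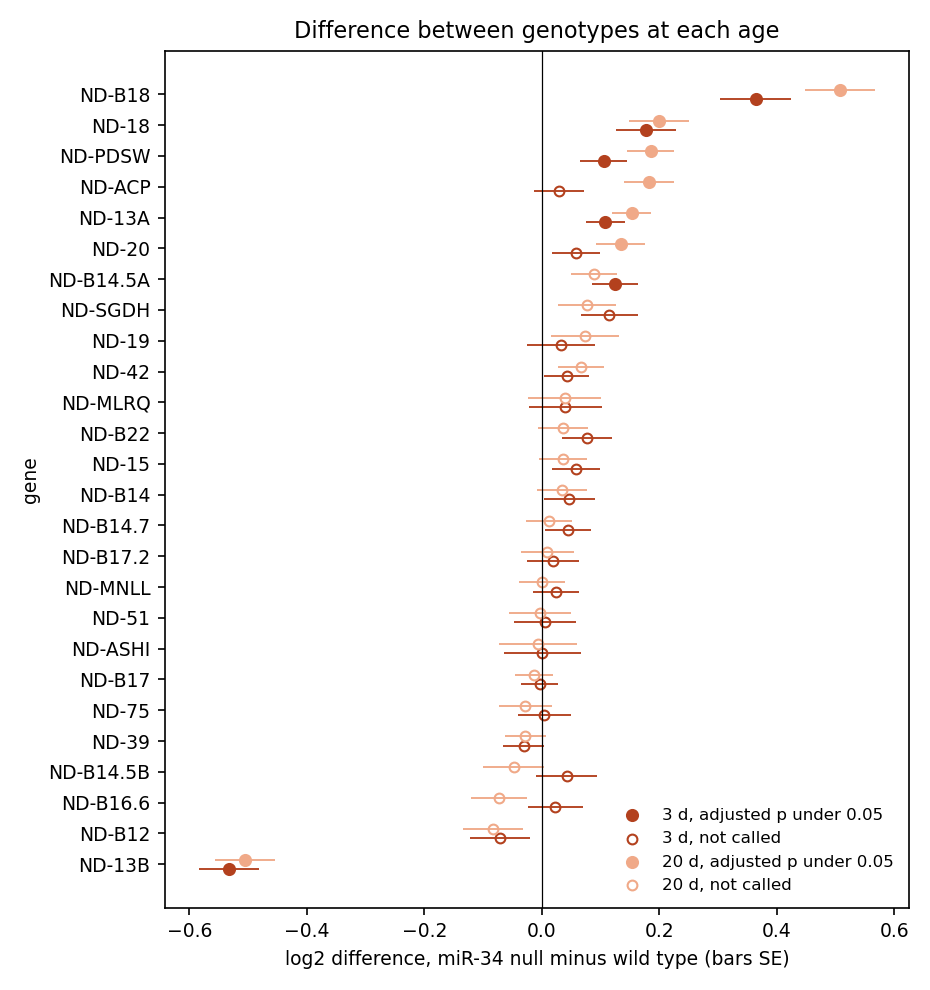
Difference between miR-34 null and wild type for each of the 26 complex I genes (y axis) at 3 d (dark) and 20 d (light), in log2(signal + 16) units (x axis), with bars of 1 SE; filled points had an adjusted p under 0.05. ND-B18 at the top and ND-13B at the bottom stand apart from the other genes at both ages, and most other points lie within 0.2 of 0.

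Genes whose groups did not overlap at all were as many as the model's calls for ageing in wild type, and fewer in the other comparisons between 2 groups. In wild type the ages were fully apart for all 26 genes, 25 lower and 1 higher at 20 d, against 19.5% of all probe sets apart and lower and 24.8% apart and higher. In null the ages were apart for 15 genes, all lower, against 16.4% of probe sets apart and lower and 23.1% apart and higher. Between genotypes 3 genes were apart at 3 d (ND-13A, ND-13B and ND-B18), 2 of them higher, against 11.5% of probe sets apart and higher and 12.8% apart and lower. At 20 d 6 were apart (ND-13A, ND-13B, ND-18, ND-ACP, ND-B18 and ND-PDSW), 5 of them higher, against 15.3% and 17.8%.

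Repeat 5 of 3 d null stood apart and had the lowest signal of its group in 24 of the 26 genes. Its mean over the 26 genes was 10.058 log2, against 10.201 to 10.259 for the other 4 arrays of the group. Over the 3533 probe sets in the same signal range its mean was 9.248, against 9.257 to 9.261 for those 4 arrays. Without it the ages in null were apart for 24 genes, and 10 genes were apart between genotypes at 3 d. The number of genes called higher in null at 3 d then was 7 with a median of 0.073, and the count at 20 d was 7. The ageing calls in null were still 25 lower and 1 higher, with a median of -0.322.

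The group means of this value over 5 arrays were 10.16 ± 0.017 (SD) for young and 9.875 ± 0.04 for old wild-type brains, and 10.195 ± 0.08 for young and 9.915 ± 0.062 for old null brains. The spread in 3 d wild type was the lowest of the 4 groups. Arrays of a group tended to be high or low for many genes together, since repeat 1 of 20 d wild type had the highest signal of its group in 18 genes and repeat 1 of 20 d null in 21.

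The other respiratory complexes changed with age in the same direction. Of 30 measured genes of complexes II to V, all 30 fell in wild type, with a median of -0.3 log2. In null 28 fell and 1 rose, with a median of -0.294. The largest fall in wild type was that of ATPsyndelta, a subunit of the ATP synthase, at -0.41 ± 0.055 (adjusted p = 1.31e-06). UQCR-11, a small subunit of complex III, was the gene that rose in null, from 62.2 ± 5.04 (SD, n = 5) at 3 d to 88.5 ± 3.07 at 20 d, a change of 0.42 ± 0.05 (adjusted p = 1.67e-07), while in wild type it went from 83.4 ± 3.31 to 74.6 ± 5.05. Its interaction of 0.56 ± 0.071 (adjusted p = 2.03e-06) was the only one called among the 30. Between genotypes 2 of the 30 were higher and 2 lower in null at 3 d, and 5 were higher at 20 d. ATPsynB was among the higher genes at both ages, by 0.175 and 0.189. Of all probe sets, 15.4% were called higher and 18.4% lower at 3 d, and 20.9% higher and 24.6% lower at 20 d.

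Genes that serve the mitochondrion in other ways were counted in the same manner. Of 69 measured genes of the mitochondrial ribosome, 58 fell and none rose in wild type, with a median of -0.223, and 47 fell and none rose in null, with a median of -0.179. All 3 measured genes of the citric acid cycle fell in both genotypes, the most in wild type being Scsalpha1, a subunit of succinyl-CoA synthetase, at -0.37 (adjusted p = 2.97e-07), and in null mAcon1, an aconitase, at -0.36 (adjusted p = 4.56e-08). Of 6 measured genes for the assembly of complex I, 2 fell in each genotype. They were CIA30 and AIF in wild type and CIA30 and Egm in null. Of all probe sets, 24.8% were called lower in wild type and 26.0% in null, so 2 of 6 was near that share. CIA30, counterpart of the assembly factor NDUFAF1, fell by 10.6% in wild type (adjusted p = 0.00773) and fell by 10.3% in null (adjusted p = 0.009).

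Nubpl, whose human counterpart delivers iron-sulphur clusters to complex I, changed by 0.071 in wild type with age (adjusted p = 0.241) and by 0.11 in null (adjusted p = 0.074), neither of which was called. Null and wild type differed by -24.6% at 3 d (adjusted p = 5.65e-07) and by -22.7% in 20 d brains (adjusted p = 1.65e-06). Of 8 measured genes that control mitochondrial DNA, its transcription or mitochondrial stress, 2 rose and 4 fell in wild type. In null 4 rose and 4 fell. Of all probe sets, 30.7% were called higher and 24.8% lower with age in wild type, and 32.0% and 26.0% in null. Sod2, the mitochondrial superoxide dismutase, had the largest fall, -0.3 ± 0.046 in wild type (adjusted p = 6.7e-06) and -0.41 ± 0.046 in null (adjusted p = 5.63e-08). TFAM, which packages mitochondrial DNA, fell by 9.9% in wild type and rose by 18.2% in null, and its interaction was 0.39 (adjusted p = 0.000392).

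Markers of brain cell types and of other tissues also differed between the groups, and their part in the results on complex I was not tested. Of 7 measured neuronal markers, 4 fell with age in each genotype and none rose, and their summed signal ranged from 6082 to 6595 in 3 d wild type, 5121 to 5514 at 20 d, 5674 to 6807 in 3 d null and 4598 to 5927 at 20 d. The median change of the 7 was -0.127 log2 in wild type and -0.232 in null. Of all probe sets, 24.8% were called lower with age in wild type and 26.0% in null. The pan-neuronal gene elav, which was not called, changed by -0.043 in wild type (adjusted p = 0.709) and -0.056 in null (adjusted p = 0.616). Of 5 glial markers, 3 fell in each genotype, with sums of 7182 to 7445, 5745 to 6360, 6926 to 7729 and 5706 to 6204 in the same order of groups. The median change of the 5 was -0.246 log2 in wild type and -0.301 in null. The glial gene repo, also not called, changed by -0.024 (adjusted p = 0.698) and 0.10 (adjusted p = 0.0722).

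Markers of tissues around the brain moved in directions that differed between lists and genotypes. These lists were chosen with earlier results of these data known, so their directions are a description only. The sums include 1 muscle and 1 fat body marker below the filter. With age in wild type, 3 muscle markers rose and 2 fell, and 2 digestive enzymes rose and 3 fell. In null 1 muscle marker rose and 4 fell, and all 5 digestive enzymes fell. All 7 measured fat body markers rose with age in wild type, where their summed signal went from 3194 to 3405 at 3 d to 6241 to 6584 at 20 d. In null 5 rose and 1 fell, with sums of 2358 to 2471 and 3052 to 3314. All 5 haemocyte markers rose in both genotypes, with sums of 252 to 275 and 702 to 737 in wild type and 208 to 223 and 617 to 711 in null. All 6 muscle markers were higher in null at 3 d, with sums of 754 to 834 against 326 to 345, and at 20 d 4 were higher and 2 lower, with sums of 502 to 544 against 398 to 421. The 5 digestive enzymes were also higher in 3 d null, at sums of 2000 to 2101 against 130.3 to 147, and at 20 d stood at 62.6 to 80.7 against 51.3 to 64.2. Of 6 photoreceptor markers, 5 were lower in null at each age, with sums of 4022 to 4548 against 5950 to 6200 at 3 d and 4033 to 4553 against 6068 to 6635 at 20 d.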

How the data were processed

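Affymetrix Drosophila 2 arrays measured 20 brain samples, 5 in each of 4 groups, grouped by the genotype and age in the labels. The deposited table holds linear intensity values for all probe sets. MAS5 and GCRMA are the tools listed per the submitters' processing notes, and MAS5 files are named per the labels' descriptions. Every deposited column had a trimmed mean of 150 (2% trimmed at each end). Scanner settings, tool versions and the array's genome build are not given in the sources used here. Intensities carry no read depth, so the 5 arrays per group limit the precision.

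Of 18952 probe sets, 183 controls were left out. Of the rest, 13647 had 1 gene symbol, 402 several and 4720 none in the platform annotation. Symbols and chromosome arms were checked against RefSeq (assembly Release 6 plus ISO1 MT); no coordinates were used. ND-AGGG shares its probe set with another symbol and so fell outside the rule.

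Signals were used as log2(signal + 16), with no further normalization. A probe set was kept if above its array's median on at least 5 arrays. The 9806 kept, from 7704 genes with a single symbol, were fitted together with a mean for each of the 4 groups (limma 3.58.1, R 4.3.3, eBayes with trend and robust). Benjamini-Hochberg adjustment was made over all 9806 in each contrast. The model was tested on simulated data. Intervals are 95% confidence intervals from the moderated fit, for single genes.

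Values on every array are printed for the 3 lowest and 2 highest called complex I genes of each contrast between 2 groups, and from the lists of assembly factors, complexes II to V, citric acid cycle and mitochondrial control genes the called gene with the largest change in a contrast is named, without single arrays. The mitochondrial ribosome and the cell type lists are given by counts or sums. In addition, elav and repo, Nubpl's ageing values, AIF and the outlying gene UQCR-11 are named. The genes, lists and tests were chosen with earlier results of these data known. The alternatives tried were other pseudocounts, filters, normalizations, eBayes settings, probe sets, a replicate block, fits on 2 groups and fits without single arrays. No sequences are shown.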

Additional observations from a re-analysis of the deposited data

Results flagged for a closer look

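Within each group of 5 arrays, a value was picked out when its gap to the nearest other array exceeded 0.71 of the group's whole range. Among 108 groups examined (26 genes and their mean, in 4 groups), 8 values (7.41%) were picked out; chance alone picks out about 5 in 100.

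Repeat 5 of 3 d null had the lowest ND-19 signal of its group, 1230.5 against 1535 for the nearest array, and the lowest mean over the 26 genes, 10.058 log2 against 10.201. Repeat 2 of 3 d wild type had the lowest ND-B14 signal, 1058 against 1146, and the lowest mean over the 26 genes, 10.13 against 10.163. Repeat 1 of 20 d wild type had the highest signals of its group for ND-51, 1371 against 1299, for ND-ASHI, 1531 against 1394, and for ND-PDSW, 998.5 against 929. Repeat 4 of 20 d wild type had the highest ND-B14.5A signal, 608.5 against 583. Leaving out the outlying array changed no ageing call of these genes.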

How the results depend on the processing

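The 25 falls with age in each genotype were called in every fit except after quantile normalization, which left 22 in each. The counts of higher and lower genes and the median were otherwise within 1.5 times or within the spread between arrays of the values reported, with these exceptions. Quantile normalization gave a median ageing change of -0.17 in wild type and -0.16 in null, 0 genes that rose in null, 2 genes lower in null at 20 d (ND-13B, and ND-B16.6 at -0.102 with adjusted p = 0.0322) and 1 interaction (ND-ACP). Median centring gave medians of -0.384 and -0.381 and 0 genes that rose in either genotype. With no filter, 2 genes rose in null. Leaving out single arrays gave 3 to 7 genes higher in null at 3 d (3 without repeat 1 of 3 d wild type or repeat 2 of 3 d null) and 0 to 1 interactions (1 without repeat 2 of 20 d null). The median genotype differences of 0.041 at 3 d and 0.035 at 20 d were 0.019 and 0.014 after quantile normalization. Without single arrays they ranged from 0.017 to 0.073 at 3 d and from -0.0 to 0.046 at 20 d. The second probe set of ND-B17 turned the 20 d genotype difference from -0.013 to 0.152 (adjusted p = 0.0395). The cause of these changes was not tested.

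The labels do not say what a repeat number marks. Arrays were correlated after the group mean of each probe set was subtracted, so these values describe only deviations from the groups. Of 30 such correlations between same-numbered arrays of different groups 16 exceeded 0.1 (median 0.11). Between different numbers 30 of 120 did (median -0.032). Repeat 1 had the highest mean over the complex I genes in all 4 groups. Not every same-numbered pair passed 0.1. The main model left the numbers out because the labels state no pairing. Whether same-numbered arrays share an origin was not tested. With the replicate block, 6 genes were higher in null at 3 d instead of 5, ND-SGDH being added (adjusted p = 0.04), and no other count changed. The interaction was not run on only the 2 groups compared, since it needs all 4. Dim probe sets set a limit, since 6 of the 32 genes could not be tested.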
